A study of Homo sapiens with 6 samples.

Results

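The retinoblastoma (RB) family and the DREAM complex were followed at the RNA level through 10 genes: the pocket proteins RB1, RBL1 and RBL2, the MuvB core genes LIN9, LIN37, LIN52, LIN54 and RBBP4, and the MuvB partners MYBL2 and FOXM1. They were taken by gene symbol from a table of 30618 genes. All 10 were present, and all 10 were among the 16749 genes that passed the filter on low counts and were tested. The material was ARPE-19, an established human retinal pigment epithelial (RPE) cell line, and all 6 libraries came from cells in 50 mM glucose, the high-glucose model of the study. The 3 NC libraries came from cells that received a non-targeting control siRNA and the 3 siEIF1 libraries from cells that received an siRNA against EIF1, a translation initiation factor that takes part in start codon selection. There was 1 siRNA in each arm, 1 cell line and no library at normal glucose, so an effect of glucose was not measured and an effect of this siRNA on other transcripts cannot be told apart from the loss of EIF1.

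The pocket proteins bind E2F transcription factors and hold back the genes that E2F switches on. RB1 mainly restrains the activator E2Fs, while RBL1 (p107) and RBL2 (p130) act with E2F4 or E2F5, a DP partner and the MuvB core as the DREAM complex, which represses cell cycle genes in quiescent and early G1 cells. When cells pass into S and G2 phase, the pocket protein leaves, and MuvB binds MYBL2 (B-MYB) and then FOXM1, which turns the same core into an activator of mitotic genes through a promoter element called CHR. The upstream signals are the cyclin-dependent kinases that phosphorylate pocket proteins, their inhibitors such as CDKN1A, which p53 switches on, and the kinase DYRK1A, which phosphorylates LIN52 and promotes DREAM assembly.

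Across the series, the libraries held from 26499929 to 31431479 counts. The study's methods describe the replicates as independent and the 6 libraries as prepared and sequenced together, and the labels name no batch. EIF1 itself fell from 286 ± 7.60 to 23.5 ± 0.80 FPKM (fragments scaled to the length of the gene model and to all mapped fragments, as deposited, mean ± SD, n = 3), a log2 fold change of -3.58 (SE 0.055, adjusted p = 1.08e-13). Here and below, log2 fold changes are siEIF1 over NC, fitted on the counts over all tested genes with edgeR's quasi-likelihood test, and adjusted p-values are Benjamini-Hochberg values over all of them. A gene is called where its adjusted p is under 0.05 and its fold change is above 2 or below 0.5. Of 18 RPE markers, 8 reached 1 FPKM in these libraries (KRT8, KRT18, EZR, BEST1, OTX2, MITF, TJP1 and SERPINF1), while the pigment genes TYR, TYRP1 and DCT were near 0. RLBP1, LRAT, RDH5, PMEL and CDH1 also stayed under 1 FPKM, and RPE65 and TTR were absent from the deposited data. Of the 12 RPE markers tested, 3 were higher by adjusted p (10.2% of all tested genes) and 0 lower. Among them, 1 was called higher (0.4% of all tested genes). The sum over the RPE markers was 641 to 665 FPKM in NC and 699.5 to 726 FPKM in siEIF1. Of 14 markers of other cell types, only PDGFRB reached 1 FPKM, and CD3E, PECAM1, CDH5 and VWF were at or near 0. That list summed to 7.74 to 10.3 FPKM in NC and to 12.2 to 14.5 FPKM in siEIF1, and the part of either shift in the results below was not tested.

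MYBL2 and FOXM1, the activating partners of MuvB, were the members with the largest differences, and both were lower in siEIF1. Of the MuvB core, LIN9, LIN52 and LIN54, with the pocket proteins RBL1 and RB1, fell by less, and RBL2, LIN37 and RBBP4 did not pass the test. In counts, 7 of the 10 genes had an adjusted p under 0.05 and a lower level in siEIF1, where 10.4% of all tested genes did, and 0 of 10 were higher at that threshold, where 10.2% of all tested genes were. Called genes numbered 2 of 10, where 1.71% of all tested genes were called, with 1.31% called lower and 0.4% called higher. For 8 of the 10 genes the groups were fully separated in CPM (counts scaled to library size), 7 of them lower and 1 higher in siEIF1, and this held for 37.1% of all tested genes. The median log2 fold change was -0.44 over the members and 0.0033 over all tested genes. All of these are amounts of RNA in bulk cultures, in which fewer cycling cells and less RNA per cell cannot be told apart.

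Since E2F and the CHR-binding subunit LIN54 contact DNA directly, the members' own promoters were read for the letters of both elements. RefSeq promoters (GRCh38.p14) were at hand for 8 members at the start site of their canonical transcript, with no such entry used for RB1 and FOXM1. In windows from 250 bases before to 50 bases after the start, both strands were searched for CHR (TTTGAA or TTCGAA) and for E2F sites (TTTGGCGC, TTTGCCGC, TTTCGCGC or TTTCCCGC). CHR letters occurred in 16.4% of all 35116 promoter windows and E2F letters in 3.31%. A shorter E2F core, GGCGGGA, was added after the windows had been seen, can overlap an E2F site, and occurred in 15.4%. Of the 11236 tested genes with a promoter entry, 15.4% held CHR letters in any of their windows. E2F letters were held by 6.51% of them and the E2F core by 30.0%. The 5 windows below are shown because they belong to the members that fell and had an entry. Each holds the 110 bases before the start, read 5′ to 3′ on the strand of the gene, with CHR, E2F and E2F core letters in capitals.
RBL1: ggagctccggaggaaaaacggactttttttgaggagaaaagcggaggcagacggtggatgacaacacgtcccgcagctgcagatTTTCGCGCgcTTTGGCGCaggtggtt
LIN52: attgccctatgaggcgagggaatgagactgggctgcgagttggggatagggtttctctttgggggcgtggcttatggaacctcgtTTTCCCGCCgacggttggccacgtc
MYBL2: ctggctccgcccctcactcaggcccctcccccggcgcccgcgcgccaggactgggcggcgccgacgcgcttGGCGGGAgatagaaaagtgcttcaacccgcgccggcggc
LIN9: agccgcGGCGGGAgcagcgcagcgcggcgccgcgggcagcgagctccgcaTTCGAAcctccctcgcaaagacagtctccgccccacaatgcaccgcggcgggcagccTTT
LIN54: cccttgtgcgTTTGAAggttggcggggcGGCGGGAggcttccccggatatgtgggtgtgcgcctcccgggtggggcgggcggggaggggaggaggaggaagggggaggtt

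The RBL1 window (chr20:37095998-37096107, minus strand) holds 2 E2F matches, TTTCGCGC at -26 to -19 and TTTGGCGC at -16 to -9 from the start. LIN52 (chr14:74084846-74084955, plus strand) holds 1, TTTCCCGC at -25 to -18, which overlaps the E2F core on the other strand (TCCCGCC at -23 to -17). MYBL2 (chr20:43667004-43667113, plus strand) holds no full E2F match under these letters, and its E2F core GGCGGGA lies at -39 to -33. LIN9 (chr1:226309165-226309274, minus strand) holds CHR letters at -60 to -55 and again at -3 to 3, so that the last 3 capitals printed are the first bases of a match that runs over the start, and an E2F core at -104 to -98. LIN54 (chr4:83010824-83010933, minus strand) holds CHR letters at -100 to -95 and an E2F core at -82 to -76. Among the members that did not pass the test, RBL2 has CHR letters after its start, at 25 to 30, RBBP4 has an E2F core at -76 to -70, and LIN37 has neither CHR nor E2F letters in its window. These matches are letters in a window, and no binding was measured.

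MYBL2 encodes B-MYB, which joins MuvB in S phase, and lies on chromosome 20 (43667019 to 43716495, plus strand, GRCh38, 14 exons in its canonical transcript; ENSG00000101057.16). It was measured at 2.89, 2.94 and 2.51 FPKM in the NC libraries and at 0.96, 0.72 and 0.92 FPKM in the siEIF1 libraries, which rest on 261, 286 and 237 counts against 102, 74 and 92. Every siEIF1 library was below every NC library by a wide gap. The siEIF1 mean was 31.2% of the NC mean, and the fitted log2 fold change was -1.66 (SE 0.131, 95% interval -1.94 to -1.38, adjusted p = 1.98e-06, edgeR). Only 56 of the 16749 tested genes, or 0.334%, had a change this low or lower. Leaving out any 1 library gave values from -1.74 to -1.56.

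FOXM1 encodes the forkhead factor that joins MuvB in G2 and drives genes of mitosis, and lies on chromosome 12 (2857680 to 2877174, minus strand, 9 exons; ENSG00000111206.13). It was measured at 3.58, 3.76 and 3.85 FPKM in NC and at 1.51, 1.93 and 1.61 FPKM in siEIF1 (572, 649 and 645 counts against 286, 350 and 287). The groups did not overlap, and the second siEIF1 library was the highest of its group. FOXM1 in siEIF1 stood at 45.1% of NC, with a log2 fold change of -1.12 (SE 0.094, 95% interval -1.33 to -0.92, adjusted p = 3.38e-06, edgeR) and values from -1.25 to -1.05 with any 1 library left out. A change this low or lower was seen for 181 tested genes, or 1.08%. The closest neighbours of FOXM1 did not pass the test. RHNO1, which overlaps FOXM1 on the opposite strand with its start 916 bases away, had a log2 fold change of -0.068 (adjusted p = 0.501, edgeR), and TULP3, whose start is 49 bases away, had -0.12 (adjusted p = 0.221).

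**Figure D1:**
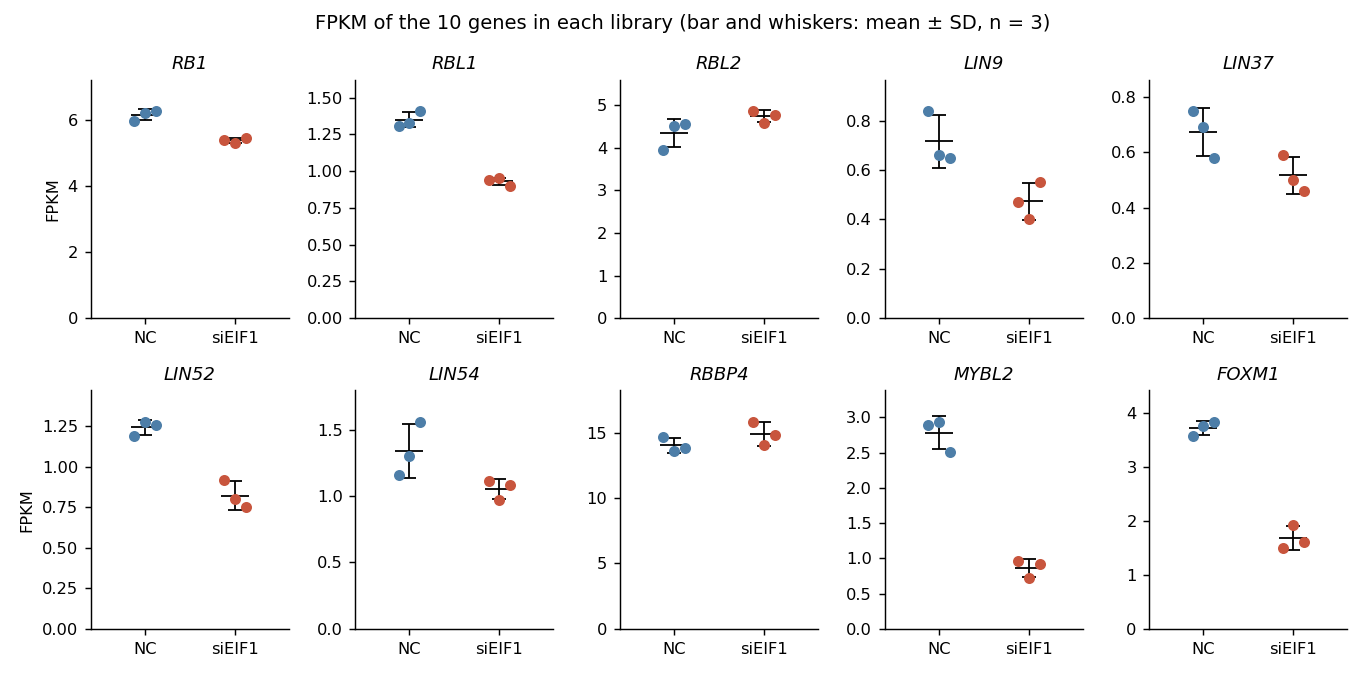
Deposited FPKM (y axis, from 0, with a scale of its own in each panel) of the 10 genes in the 3 NC (blue) and 3 siEIF1 (red) libraries; points are libraries, and the bar and whiskers are mean ± SD (n = 3). MYBL2 and FOXM1 show the widest gaps between the groups, RBL1 and LIN52 separate with narrower ones, and the points of LIN37 and RBBP4 overlap.

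Among the pocket proteins, RBL1 and RB1 fell and RBL2 did not pass the test. RBL1, the p107 pocket protein that is usually high in cycling cells (chromosome 20, 36996349 to 37095997, minus strand, 22 exons; ENSG00000080839.12), was measured at 1.31, 1.33 and 1.41 FPKM in NC and at 0.94, 0.95 and 0.90 FPKM in siEIF1. The 3 libraries of each group lay close together and the groups were far apart relative to that spread. The log2 fold change was -0.51 (SE 0.093, 95% interval -0.72 to -0.31, adjusted p = 0.00164, edgeR), with counts of 254, 277 and 285 against 214, 209 and 194. The adjusted p of RBL1 was between 0.00417 and 0.0111 when any 1 library was left out.

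RB1 encodes the retinoblastoma protein, the founding tumour suppressor of the family (chromosome 13, 48303744 to 48599436, plus strand, 27 exons; ENSG00000139687.16). Its values were 5.98, 6.23 and 6.29 FPKM in NC and 5.42, 5.32 and 5.47 FPKM in siEIF1. The groups did not overlap, but the difference was small, with siEIF1 at 87.6% of NC and a log2 fold change of -0.17 (SE 0.051, 95% interval -0.28 to -0.060, adjusted p = 0.0315, edgeR). With 1 library left out, the adjusted p of RB1 ranged from 0.0391 to 0.108, so that it stayed under 0.05 only without the first NC library, and DESeq2 gave 0.0534.

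RBL2 encodes p130, the pocket protein that predominates in resting cells (chromosome 16, 53433977 to 53491648, plus strand, 22 exons; ENSG00000103479.17). It was measured at 3.96, 4.52 and 4.57 FPKM in NC and at 4.87, 4.59 and 4.77 FPKM in siEIF1. All siEIF1 values were above all NC values, by as little as 0.02 FPKM between the nearest libraries. The log2 fold change was 0.15 (SE 0.062, 95% interval 0.012 to 0.28, adjusted p = 0.12, edgeR), which does not pass the threshold. Without the first NC library, which was the lowest, RBL2 had a log2 fold change of 0.084 (adjusted p = 0.38). AKTIP, which overlaps RBL2 on the opposite strand, had 761 to 847 counts per library. Its log2 fold change was -0.20 (adjusted p = 0.0404, edgeR), and DESeq2 gave an adjusted p of 0.0688. Whether reads of AKTIP entered the counts of RBL2 was not tested.

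FPKM values are per length, so the levels of the 3 pocket protein genes can be set side by side within a library. RBL1 made up 11.6%, 11.0% and 11.5% of their summed FPKM in the NC libraries and 8.37%, 8.75% and 8.08% in the siEIF1 libraries. RBL2 made up 36.6% ± 1.23 (SD, n = 3) in NC and 42.8% ± 0.55 in siEIF1, and RB1 52.0% ± 1.02 and 48.8% ± 0.455. The share of RBL2 was thus higher and the shares of RBL1 and RB1 lower in siEIF1, and for none of the 3 did the groups overlap. The ratio of RBL2 to RBL1 was 3.02, 3.40 and 3.24 in NC and 5.18, 4.83 and 5.30 in siEIF1. With CPM per kilobase of the canonical transcript in place of FPKM, the difference in the RBL1 share was -2.29 percentage points in place of -2.98, and the ratio of RBL2 to RBL1 was higher throughout, at 4.81, 5.43 and 5.19 in NC and 8.29, 7.68 and 8.44 in siEIF1. These shares are given as a description, with no test.

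**Figure D2:**
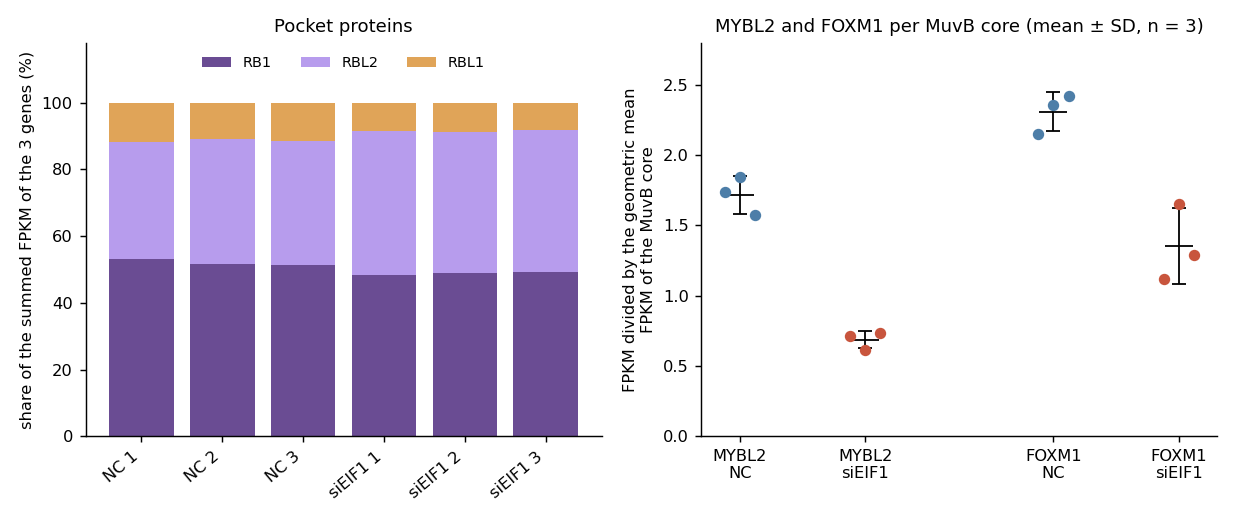
Left, shares of RB1, RBL2 and RBL1 in the summed FPKM of the 3 pocket protein genes (percent, y axis) in each of the 6 libraries (x axis). Right, FPKM of MYBL2 and FOXM1 divided by the geometric mean FPKM of the 5 MuvB core genes (y axis, from 0), with a point per library and mean ± SD (n = 3); the RBL1 share is 8.08% to 8.75% in siEIF1 and 11.0% to 11.6% in NC, and both ratios on the right are lower in every siEIF1 library.

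The MuvB core split by gene. LIN52, the subunit that DYRK1A phosphorylates and that contacts the pocket protein (chromosome 14, 74084956 to 74201493, plus strand, 6 exons; ENSG00000205659.11), was measured at 1.19, 1.28 and 1.26 FPKM in NC and at 0.92, 0.80 and 0.75 FPKM in siEIF1. These rest on 143, 166 and 158 counts against 131, 109 and 100, and no siEIF1 library reached an NC library in FPKM. The log2 fold change was -0.57 (SE 0.130, 95% interval -0.85 to -0.29, adjusted p = 0.00738, edgeR), and it stayed past the threshold with any 1 library left out. ALDH6A1, which starts 464 bases from LIN52 on the opposite strand, rose, with a log2 fold change of 0.33 (SE 0.076, adjusted p = 0.00788).

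LIN9 is the scaffold subunit of MuvB (chromosome 1, 226231149 to 226309869, minus strand, 15 exons; ENSG00000183814.16). It was low, at 0.84, 0.66 and 0.65 FPKM in NC and at 0.47, 0.40 and 0.55 FPKM in siEIF1, on 121, 103 and 99 counts against 81, 66 and 88. The first NC library stood above the other two, and the groups did not overlap. The log2 fold change was -0.57 (SE 0.165, 95% interval -0.93 to -0.22, adjusted p = 0.0255, edgeR). Without the first NC library, LIN9 had a value of -0.45 (adjusted p = 0.123), and without the second siEIF1 library one of -0.49 (adjusted p = 0.109), so its pass of the adjusted p rested on these libraries.

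LIN54 is the subunit that binds the CHR element (chromosome 4, 82909973 to 83012926, minus strand, 13 exons; ENSG00000189308.11). Its values were 1.16, 1.30 and 1.56 FPKM in NC and 1.11, 0.97 and 1.08 FPKM in siEIF1, on 256, 309 and 360 counts against 287, 242 and 264. The third NC library was the highest, and the nearest libraries of the groups were 1.16 and 1.11. The log2 fold change was -0.33 (SE 0.107, 95% interval -0.56 to -0.10, adjusted p = 0.0433, edgeR). Without the third NC library, LIN54 stood at -0.22 (adjusted p = 0.214), its adjusted p was also above 0.05 without the second NC (0.0821), second siEIF1 (0.147) or the third siEIF1 (0.064) library, and DESeq2 gave 0.0523.

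LIN37, a subunit needed for repression by DREAM (chromosome 19, 35748361 to 35754519, plus strand, 9 exons; ENSG00000267796.8), was measured at 0.75, 0.69 and 0.58 FPKM in NC and at 0.59, 0.50 and 0.46 FPKM in siEIF1. The groups overlapped, and the log2 fold change was -0.36 (SE 0.191, 95% interval -0.77 to 0.055, adjusted p = 0.218, edgeR). It had the fewest counts of the 10 genes, from 47 to 69 per library, and the interval includes changes as large as those of LIN9 and LIN52. Its counts are also uncertain because another annotated gene, ENSG00000188223, overlaps it on the same strand and took 191 to 253 counts per library, with a log2 fold change of -0.26 (adjusted p = 0.158).

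RBBP4 encodes a histone-binding protein that MuvB shares with several chromatin complexes (chromosome 1, 32651142 to 32686211, plus strand, 12 exons; ENSG00000162521.19). It was the most abundant of the 10 genes, at 14.65, 13.61 and 13.83 FPKM in NC and at 15.85, 14.06 and 14.82 FPKM in siEIF1. The groups overlapped, with a log2 fold change of 0.11 (SE 0.053, 95% interval -0.0055 to 0.22, adjusted p = 0.175, edgeR). Without the first siEIF1 library, which was the highest, RBBP4 had a value of 0.062 (adjusted p = 0.496). The interval excludes a fall of the size fitted for RB1. Rows of RBBP4 pseudogenes held 16 counts over all libraries, against 29225 for RBBP4.

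**Figure D3:**
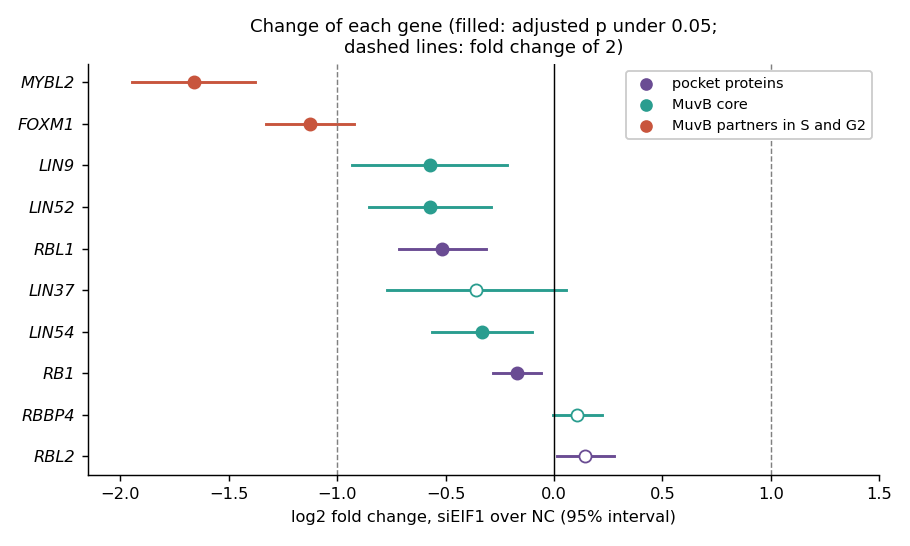
Log2 fold change (x axis, siEIF1 over NC) of each of the 10 genes (y axis) with its 95% interval from the edgeR fit, coloured by role and filled where the adjusted p is under 0.05; dashed lines mark a fold change of 2 in either direction. MYBL2 (-1.66) and FOXM1 (-1.12) lie past the lower line, 5 genes lie between it and 0 with filled points, and LIN37, RBBP4 and RBL2 are open.

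In FPKM, the order of the levels in NC was RBBP4 (14.03), RB1 (6.17), RBL2 (4.35), FOXM1 (3.73), MYBL2 (2.78), RBL1 (1.35), LIN54 (1.34), LIN52 (1.24), LIN9 (0.717) and LIN37 (0.673). The ranges of neighbours overlapped for RBL1 and LIN54, for LIN54 and LIN52, and for LIN9 and LIN37. In siEIF1, RBBP4 (14.9), RB1 (5.40), RBL2 (4.74) and FOXM1 (1.68) kept their places, while MYBL2 (0.867) stood seventh, below LIN54 (1.05) and RBL1 (0.93) and above LIN52 (0.823). There the ranges of MYBL2 overlapped those of RBL1 and of LIN52. With CPM per kilobase of the canonical transcript instead, LIN37 stood sixth in NC, and RBL2 (9.80) stood above RB1 (9.02) in siEIF1, where RB1 (10.1) stood above RBL2 (8.86) in NC. The order of these pairs therefore depends on the length used. The length that FPKM implies for LIN37 is 3.71 times its canonical transcript.

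The activators were also lower relative to the core they bind. MYBL2 divided by the geometric mean FPKM of the 5 MuvB core genes was 1.74, 1.84 and 1.58 in NC and 0.711, 0.616 and 0.737 in siEIF1. For FOXM1 the same ratio was 2.15, 2.36 and 2.42 in NC and 1.12, 1.65 and 1.29 in siEIF1. For neither ratio did the groups overlap, and every siEIF1 library was below every NC library. The ratios are a description, with no test. Without LIN37 in the core, the difference of the mean ratios (siEIF1 minus NC) was -0.831 in place of -1.03 for MYBL2 and -0.768 in place of -0.956 for FOXM1.

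The E2F and DP factors, through which the pocket proteins reach DNA, were mostly lower. Of 10 genes 9 were tested, 6 had an adjusted p under 0.05 and were lower (10.4% of all tested genes), 2 were called (1.71% of all tested genes; DESeq2 called 1 and gave no adjusted p for E2F2), 0 were higher at that threshold, and the median log2 fold change was -0.28. The number lower by adjusted p was 4 without the first NC library and 5 without the second siEIF1 library. It was also 4 with DESeq2 and with limma on either FPKM scale, and 5 with at least 10 counts in every library. With the replicate block or with no filter on low counts it was 7. E2F1, an activator E2F that RB1 restrains, was measured at 4.64, 4.10 and 4.07 FPKM in NC and at 1.10, 1.02 and 1.40 FPKM in siEIF1, a log2 fold change of -1.84 (SE 0.116, adjusted p = 5.00e-07, edgeR). Its groups were far apart. E2F2, also an activator, was barely detected (0.147 ± 0.0503 FPKM in NC and 0.0367 ± 0.00577 in siEIF1) and fell by 1.99 on the log2 scale (SE 0.372, adjusted p = 0.00204). E2F7, a repressor that lacks a pocket protein site, fell from 7.32 ± 1.61 to 4.55 ± 1.29 FPKM (log2 fold change -0.67, adjusted p = 0.0134), but stood at -0.48 (adjusted p = 0.0825) without the first NC library, and DESeq2 gave it an adjusted p of 0.0835.

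E2F4, the factor of DREAM itself, fell from 11.5 ± 0.452 to 9.55 ± 0.339 FPKM, a log2 fold change of -0.25 (SE 0.054, adjusted p = 0.00577, edgeR). E2F3 had a log2 fold change of -0.28 (adjusted p = 0.0172), with an adjusted p of 0.0772 without the first NC and 0.0811 without the second siEIF1 library. E2F6 had -0.32 (adjusted p = 0.00958), with 0.0504 without the third NC library. E2F5 (-0.18, adjusted p = 0.0651) and the DP genes TFDP1 (-0.085, adjusted p = 0.304) and TFDP2 (0.093, adjusted p = 0.507) did not pass the test.

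Of the kinases and cyclins upstream of the pocket proteins and DREAM, DYRK1A included, 9 were tested. At an adjusted p under 0.05, 7 of the 9 were lower, where 10.4% of all tested genes were. Of the 9, 2 were called lower, where 1.31% of all tested genes were called lower. The median log2 fold change of the 9 was -0.79. CCND1, the D-type cyclin that starts pocket protein phosphorylation, was measured at 193, 175.5 and 192 FPKM in NC and at 75.9, 72.6 and 95.6 FPKM in siEIF1, a log2 fold change of -1.18 (SE 0.079, adjusted p = 6.61e-07, edgeR). No siEIF1 library came near an NC library. CCNE2, an E-type cyclin of the G1/S transition, fell from 0.67 ± 0.0721 to 0.187 ± 0.0321 FPKM (log2 fold change -1.82, adjusted p = 3.03e-05), and its relative CCNE1 fell by 0.82 on the log2 scale (adjusted p = 6.09e-04). CDK2, the kinase these cyclins bind, fell from 4.42 ± 0.297 to 2.51 ± 0.337 FPKM (-0.79, adjusted p = 7.09e-05). CCNA2, the S and G2 phase cyclin (-0.94, adjusted p = 2.16e-04), CCND3 (-0.39, adjusted p = 0.00373) and CDK4, a partner of the D-type cyclins (-0.20, adjusted p = 0.00853), fell as well. CDK6 (0.051, adjusted p = 0.580) and DYRK1A (-0.086, adjusted p = 0.350) did not pass the test.

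Of the 7 CDK inhibitors, 0 were called by edgeR or by DESeq2, where 1.71% of all tested genes were called by edgeR. An unadjusted p under 0.05 was found for 3 of the 7, where 32.6% of all tested genes had one. CDKN2B (p15), an inhibitor of the kinases that bind D-type cyclins, rose from 9.47 ± 1.09 to 13.9 ± 1.36 FPKM, a log2 fold change of 0.57 (SE 0.078, adjusted p = 2.09e-04, edgeR), and each siEIF1 library was above each NC library. CDKN2D, an inhibitor of the same kinases, had a log2 fold change of -0.49 and only just passed (adjusted p = 0.0441), and with any 1 library left out its adjusted p was between 0.0545 and 0.14. CDKN1A (p21), the p53 target upstream of DREAM, was measured at 235, 260 and 252 FPKM in NC and at 223, 225 and 214 FPKM in siEIF1, slightly lower in every siEIF1 library, with a log2 fold change of -0.15 (SE 0.057, 95% interval -0.28 to -0.031) that did not pass the test (adjusted p = 0.0747). The interval of CDKN1A lies below 0, but it is for that gene alone and is not adjusted for the number of genes tested. The paralogs MYBL1 (-0.24, adjusted p = 0.149) and RBBP7 (-0.12, adjusted p = 0.104) did not pass the test either.

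**Figure D4:**
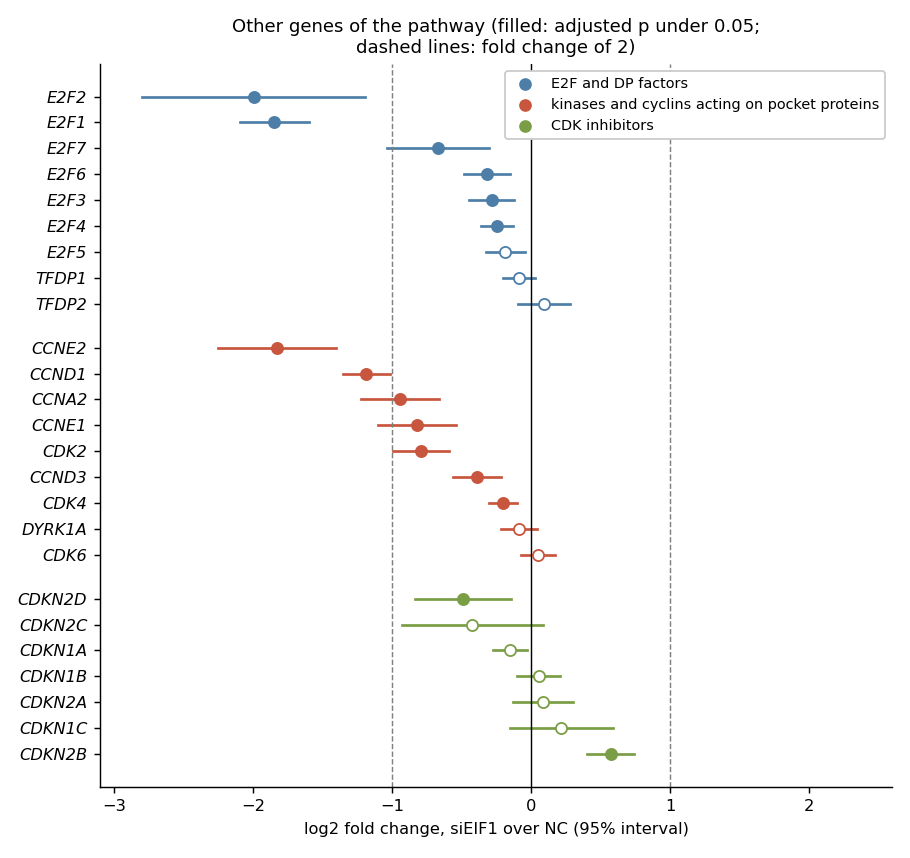
Log2 fold change (x axis, siEIF1 over NC, with 95% interval) of the tested E2F and DP factors, kinases and cyclins, and CDK inhibitors (y axis), filled where the adjusted p is under 0.05; dashed lines mark a fold change of 2. E2F1, E2F2, CCNE2 and CCND1 lie past the lower line, and CDKN2B (0.57) is the only filled point to the right of 0.

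Genes held to be under the control of the members were then counted, from lists written by hand from general knowledge that hold none of the members. Binding to the listed genes was not measured. Of 69 G1/S genes listed as E2F targets, 68 were tested, 36 (52.9%) were called lower and 0 higher, 66 (97.1%) had an adjusted p under 0.05 and were lower, and the median log2 fold change was -1.05. Of 88 G2/M genes listed as targets of MuvB with MYBL2 and FOXM1, 87 were tested, 53 (60.9%) were called lower and 0 higher, 80 (92.0%) passed the adjusted p as lower, and the median was -1.14. Both stand far above the shares of all tested genes, which were 1.31% called lower and 10.4% lower by adjusted p. The lists were chosen with earlier results of these data known, so the contrast is a description and was not tested. The E2F and cyclin genes that sit in these lists (E2F1, E2F2, E2F7, E2F8, CCNE1, CCNE2 and CCNA2, of which E2F8 was not tested) are counted in both places.

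In the G1/S list, the smallest p-values belonged to genes of DNA replication and repair. RPA2, a subunit of the protein that coats single-stranded DNA, was measured at 16.4, 15.06 and 15.29 FPKM in NC and at 6.23, 6.0 and 6.70 FPKM in siEIF1 (log2 fold change -1.28, SE 0.065, adjusted p = 1.29e-07, edgeR). BRCA1, of homologous recombination, fell by 1.95 on the log2 scale, the flap endonuclease FEN1 by 1.11, and the replicative helicase subunits MCM5 and MCM4 fell by 1.03 and 1.11. In the G2/M list they were CDK1, TOP2A, CKS1B, PBK and UBE2C. CDK1, the mitotic kinase, was measured at 3.63, 3.75 and 3.64 FPKM in NC and at 1.05, 1.26 and 1.14 FPKM in siEIF1 (log2 fold change -1.66, SE 0.093, adjusted p = 3.00e-07), and the mitotic kinase PBK fell by 2.31. TOP2A, which untangles DNA, fell by 1.54, UBE2C, which helps to degrade cyclins, by 1.58, and CKS1B, which binds CDK1, fell by 1.04.

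The p53 targets did not share this direction. Of 28 tested genes, 0 were called by edgeR or by DESeq2, where 1.71% of all tested genes were called by edgeR. An unadjusted p under 0.05 was found for 17 of the 28, a larger share than the 32.6% of all tested genes. By adjusted p, 11 (39.3%) were higher, where 10.2% of all tested genes were, and 4 (14.3%) were lower, where 10.4% of all tested genes were, with a median log2 fold change of 0.089. PERP (0.62), BTG2 (0.49) and TP53I3 (0.63), a desmosome protein, an antiproliferative factor and an oxidoreductase, rose. GADD45A (-0.62) and SESN2 (-0.56), which respond to stress through p53 and through other routes, fell.

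**Figure D5:**
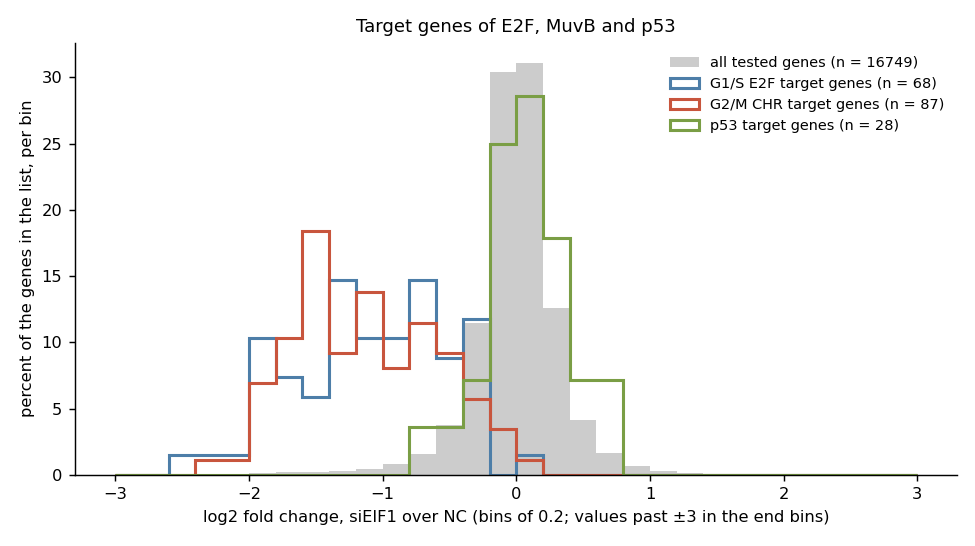
Distribution of log2 fold changes (x axis, siEIF1 over NC, bins of 0.2) as the percent of genes per bin (y axis) for all 16749 tested genes (grey), the G1/S E2F targets (n = 68), the G2/M CHR targets (n = 87) and the p53 targets (n = 28). Of the G1/S targets 67 lie left of 0, with a median of -1.05, and of the G2/M targets 86, with a median of -1.14. The p53 targets lie around 0, with a median of 0.089.

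The same promoter letters were counted in the target lists. The G2/M list was written as targets of MuvB through CHR elements, and the G1/S list as targets of E2F. High shares of CHR and E2F letters were thus built into the choice of genes and are no separate result. Of 75 G2/M genes with a promoter entry, 56 (74.7%) held CHR letters and 5.33% held E2F letters. Of 57 G1/S genes with an entry, 32 (56.1%) held E2F letters and 8.77% held CHR letters. Over all 11236 tested genes with an entry, 15.4% held CHR letters and 6.51% held E2F letters. The E2F core was held by 32 (56.1%) of the G1/S genes and by 32.0% of the G2/M genes. It was also held by 13 of 23 p53 targets with an entry (56.5%), and by 30.0% of all tested genes with an entry. The median log2 fold change of G2/M genes was -1.21 with CHR letters (36 of 56 called lower) and -0.97 without (9 of 19), and that of G1/S genes was -0.87 with E2F letters (15 of 32) and -1.11 without (13 of 25). With the shorter E2F core the order was the other way, with a median of -1.22 in G1/S genes that held it (17 of 32 called lower) and -0.71 in those without (11 of 25). These differences between genes with and without the letters were not tested.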

How the data were processed

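RNA-seq of ARPE-19 cells was analysed for 3 NC and 3 siEIF1 libraries, grouped by their titles. Per the study's methods, libraries were strand-specific and poly(A)-captured with 150 nt paired-end reads, trimmed with FASTX-Toolkit 0.0.13 and aligned to GRCh38 with HISAT2. The authors deposited counts of uniquely mapped reads per gene, not normalized, and FPKM values, which divide by gene length and mapped fragments and are rounded. The counting program, its strand setting and the annotation release are not given in the sources used here, so counts of overlapping and antisense genes are uncertain. Of the columns of the tables, 0 were left unmatched.

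Counts were fitted with edgeR 4.0.16 in R 4.3.3 (filterByExpr, TMM, quasi-likelihood F test, group only, Benjamini-Hochberg adjustment over 16749 genes), checked first on simulated data. The standard error was derived from the F statistic. DESeq2 1.42.0, limma 3.58.1 on log2(FPKM + 1) and log2(FPKM + 0.1), other normalizations and filters, a replicate block and leaving out each library were alternatives. Coordinates came from GENCODE release 44 and promoters from RefSeq. The members and lists were chosen with earlier results of these data known. The genes named are every member, EIF1, some overlapping or neighbouring genes, and pathway genes with an adjusted p under 0.05. The rule also takes the 5 genes of each target list with the smallest p. For MYBL2 and for FOXM1 it takes the 3 nearest genes with a mean count of at least 50. Pathway genes and markers outside that rule are named where a count was small and were chosen after their values were seen.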

Additional observations from a re-analysis of the deposited data

How the results depend on the processing

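The adjusted p of MYBL2, FOXM1, RBL1 and LIN52 stayed under 0.05 and that of RBL2, LIN37 and RBBP4 above it under all 14 alternatives, with 0 reversals. That of LIN54 and RB1 was above 0.05 under 7 of 14 alternatives each and that of LIN9 under 3. The number of members past the adjusted p was 7, and with a library left out it ranged from 4 (without the second siEIF1 library) to 6. With limma on log2(FPKM + 1), a scale that shrinks the change of low genes, 1 member was called in place of 2, since FOXM1 stood at -0.82, 6 G1/S genes were called lower in place of 36, and 4 G2/M genes in place of 53. Over all tested genes that setting called 20 genes and log2(FPKM + 0.1) called 164, against 286. With CPM per kilobase of the canonical transcript, a setting chosen after seeing the data, the difference in the RBL1 share was -2.29 in place of -2.98 percentage points and that of MYBL2 per MuvB core -0.714 in place of -1.03. Without LIN37 in the core, also chosen after seeing the data, the latter was -0.831.

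The replicate numbers were not taken to pair the libraries, since the correlation of same-numbered deviations was 0.149, 0.0946 and 0.128, although each library correlated best with its own number. With the replicate block, 7 members were past the adjusted p and 2 were called, as without it, and 298 genes were called against 286. Over all tested genes, 4277 were past the adjusted p with the block, against 3446 without it. Depth limits LIN37 and LIN9 most, at 47 to 121 counts per library.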

Other observations

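The genes whose values over the 6 libraries were nearest to those of MYBL2 (root mean square distance of log2 CPM, each gene centred on its own mean, among 13383 genes) were RRM2, which makes deoxynucleotides, at 0.0461, the centromere protein gene CENPH at 0.0751 and TROAP at 0.0974. RRM2 was measured at 1.02, 1.08 and 0.93 FPKM in NC and at 0.33, 0.26 and 0.31 FPKM in siEIF1, with a log2 fold change of -1.73. Nearest to FOXM1 were RFC3, a subunit of the clamp loader, at 0.0723, the centromere protein gene CENPF at 0.0732 and the mitotic cyclin gene CCNB1 at 0.0959. CCNB1 was measured at 7.07, 7.09 and 6.62 FPKM in NC and at 3.21, 3.66 and 3.29 FPKM in siEIF1, with a log2 fold change of -1.01. The distances describe 6 libraries in 2 groups, and the points of each gene share the group difference.

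Promoter letters were also counted over all 11236 tested genes with a promoter entry, those of the target lists included. CHR letters were found in 1734 of them, of which 3.63% were called lower, against 0.968% of the genes without CHR letters. E2F letters were found in 732 genes, with 4.51% called lower against 1.16% without. For the CCAAT box (CCAAT on either strand) the shares were 2.13% and 0.822%, and for the E2F core, a motif chosen after the windows were seen, 1.75% and 1.22%. The median log2 fold change was -0.017 with CHR letters, -0.030 with E2F letters and near 0 over all of these genes. Many of these genes are in the target lists. Of the 63 genes with CHR letters called lower, 36 were in the G2/M list and 1 in the G1/S list. Of the 33 genes with E2F letters called lower, 15 were in the G1/S list and 3 in the G2/M list. Neighbouring genes share promoters, and the shares called lower were not tested.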
